A study of Mus musculus with 6 samples.

Results

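Microglia read extracellular nucleotides through a set of receptors and enzymes, and the messenger RNA of 10 genes of this set was compared between CD11b+ cells from the brains of 3 mice labelled *Cnr1*+/+ and 3 labelled *Cnr1*-/-. The genes were *P2ry12*, *P2ry13*, *P2ry6*, *P2rx4*, *P2rx7*, *Gpr34*, *Adora3*, *Entpd1*, *Kcnk13* and *Kcnk6*. They were chosen by name, by a rule that uses no values, and all 10 symbols were found among the 19225 listed genes. None of the 10 differed between the genotypes past the test used. *P2rx7*, with a fitted 1.24-fold higher level in the libraries labelled *Cnr1*-/-, was the only member whose groups did not overlap, as those of 11% of all tested genes did not, and without *Cnr1*+/+ replicate 1 its log2 fold change was 0.14 in place of 0.31.

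*Cnr1* encodes the cannabinoid receptor CB1. In the *Cnr1*-/- mice a neomycin cassette interrupts its coding region in every cell of the body. The labels give their strain as Cnr1 tm1Zim and their genotype as d/d, and the methods name the strain B6.cg Cnr1 tm1Zim. The *Cnr1*+/+ mice were wild type littermates on the same C57BL/6J background, spelled C57BL6/J in the labels. All 6 mice were males that had not been exposed to stress, with an age of 3 months in the labels and a younger age in the methods. Cells were enriched from perfused brain without cerebellum by CD11b magnetic beads, which also hold other myeloid cells, and 1 library was made per mouse from the 3′ ends of transcripts. The comparison asks whether the mice differ in microglial gene expression before any stress.

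ATP and ADP leak from damaged or active cells and are cut step by step to AMP and adenosine by enzymes on the cell surface. Microglia bind ADP with P2Y12 and P2Y13 and extend their processes towards its source, while the potassium channel THIK-1 keeps the cells ramified and their processes in motion. Uridine nucleotides act on P2Y6 and promote phagocytosis, and ATP opens the ion channels P2X4 and P2X7, the latter a trigger of the inflammasome. *P2ry12* and *Gpr34* are widely used as markers of homeostatic microglia.

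The effective library sizes after the authors' TMM scaling, derived from the value of 1 read, were 7708793 to 10723861 reads, and values are given as TMM-scaled CPM (cpm). The level of *Cnr1* itself did not follow the labels. It was listed at 0 in all 3 libraries labelled *Cnr1*+/+ and at 1.41, 1.21 and 1.79 cpm in those labelled *Cnr1*-/-, so every direction below is one between libraries as labelled. The cassette interrupts the coding region and reads come from 3′ ends, but where in *Cnr1* these reads lie was not examined. Whether the labels or the alleles account for these values was not tested. All 12 microglia identity genes were measured, with *Cx3cr1* at a mean of 5075 cpm and *Tmem119* at 1193 cpm, and their summed level was 14388 to 16580 cpm in the libraries labelled *Cnr1*+/+ and 15468 to 16480 cpm in those labelled *Cnr1*-/-. The library labelled *Cnr1*-/- replicate 2 stood apart by blood cell markers. The 10 neutrophil markers summed to 3994 cpm there and to 262 to 518 cpm in the other libraries, and the 7 erythrocyte markers to 2342 cpm there and to 136 to 237 cpm elsewhere. The part of blood cells in the member values was not tested. In these bulk samples, fewer cells of a type and less RNA per cell cannot be told apart.

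All 10 genes passed the minimum mean of 10 cpm and were tested among 6659 genes with limma on log2 (cpm + 0.1), with Benjamini-Hochberg adjustment over all tested genes. At a nominal p under 0.05 there were 0 of 10 member genes, against 6.02% of the tested genes. At an adjusted p under 0.1 there were also 0 of 10, against 0.105% of the tested genes. The log2 fold change, *Cnr1*-/- minus *Cnr1*+/+, was above 0 for 6 members and below 0 for 4. Its median was 0.10 over the members and 0.08 over all tested genes, of which 68.4% were above 0. Under the 4 other scalings tried, 5 members were above 0 and 5 below, with medians over the members from −0.0005 to 0.02. The 95% confidence intervals of the 10 members ran from 0.815-fold to 1.61-fold, so that larger differences lay outside each of them.

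**Figure D1:**
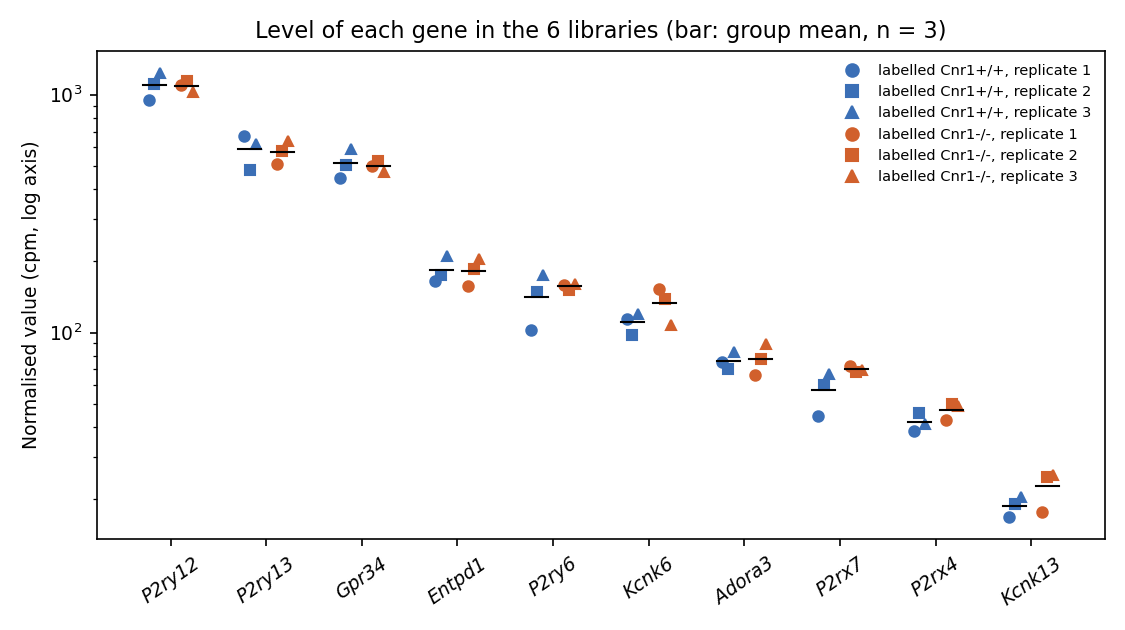
Level of each of the 10 genes (y axis, cpm, log scale) in every library, with points for single libraries coloured by genotype label and bars for the mean of 3 libraries. The genes span from 16.7 cpm for *Kcnk13* to 1234 cpm for *P2ry12*, and the groups of 9 genes overlap.

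The levels of the members differed far more between genes than between genotypes. With 3′ sequencing a transcript gives about 1 read whatever its length, so levels were compared without division by length. The mean over 6 libraries was 1092 cpm for *P2ry12*, 583 cpm for *P2ry13*, 507 cpm for *Gpr34*, 182 cpm for *Entpd1*, 149 cpm for *P2ry6*, 122 cpm for *Kcnk6*, 76.9 cpm for *Adora3*, 63.6 cpm for *P2rx7*, 44.6 cpm for *P2rx4* and 20.6 cpm for *Kcnk13*. *P2ry12* lay at the 99.5th percentile of the tested genes and *Kcnk13* at the 39.5th. The steps from *P2ry12* to *P2ry13*, from *Gpr34* to *Entpd1*, from *Kcnk6* to *Adora3* and from *P2rx4* to *Kcnk13* were clear, in that the higher gene was above the lower in 6 of 6 libraries and the ranges did not meet. *P2rx7* was above *P2rx4* in 6 of 6 libraries, by 1.15 to 1.68 times, although their ranges over the libraries overlap. *P2ry13* and *Gpr34*, *Entpd1* and *P2ry6*, *P2ry6* and *Kcnk6*, and *Adora3* and *P2rx7* were neighbours in this order that kept it in only 5 of 6 libraries.

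*P2ry12*, the ADP receptor that steers microglial processes, lies on chromosome 3 of mm10, from 59216272 to 59262871 on the minus strand. Its level was 951, 1107 and 1234 cpm in the libraries labelled *Cnr1*+/+ and 1097, 1143 and 1023 cpm in those labelled *Cnr1*-/-. The highest and the lowest library both carried the *Cnr1*+/+ label, and all 3 *Cnr1*-/- libraries lay between them. The means were 1097 ± 142 cpm and 1088 ± 60.5 cpm (SD, n = 3 each), a log2 fold change of −0.01 with an SE of 0.123 (limma, adjusted p = 0.995; two-sided exact permutation p = 0.9). The interval of the fold, 0.836 to 1.19, is among the narrowest of the set, and the direction changed when single libraries were left out. Under the other scalings the log2 fold change of *P2ry12* was −0.14 to −0.08.

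*P2ry13*, the second ADP receptor, is the neighbour of *P2ry12* on the same strand, from 59207892 to 59210882, with a gap of 5389 bp. Its level was 668, 481 and 622 cpm with the *Cnr1*+/+ label and 511, 578 and 636 cpm with the *Cnr1*-/- label. Here too the extremes were both *Cnr1*+/+ libraries, but in another order, since replicate 1 was the lowest library for *P2ry12* and the highest for *P2ry13*. The means were 591 ± 97.4 and 575 ± 62.6 cpm (SD, n = 3 each), with a log2 fold change of −0.03, an SE of 0.129 and an adjusted p of 0.986 in limma. The ratio of *P2ry12* to *P2ry13* therefore varied, at 1.42, 2.30 and 1.98 in the *Cnr1*+/+ libraries and at 2.15, 1.98 and 1.61 in the *Cnr1*-/- libraries. Under the other scalings the log2 fold change of *P2ry13* was −0.15 to −0.11.

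The promoters of this pair are given because the genes are neighbours with similar functions whose values went separate ways over the libraries. They are the 250 bases before the RefSeq start site (GRCm38.p6, the assembly of mm10), 5′ to 3′ along the gene. Bases are in lower case, with GAGGAA in capitals, a longer form of the GGAA letters bound by the myeloid factor PU.1. The *P2ry13* window is chr3:59210883-59211132 and the *P2ry12* window chr3:59262986-59263235, both on the minus strand, and the RefSeq start of *P2ry12* lies beyond the gene end in the table.
P2ry13: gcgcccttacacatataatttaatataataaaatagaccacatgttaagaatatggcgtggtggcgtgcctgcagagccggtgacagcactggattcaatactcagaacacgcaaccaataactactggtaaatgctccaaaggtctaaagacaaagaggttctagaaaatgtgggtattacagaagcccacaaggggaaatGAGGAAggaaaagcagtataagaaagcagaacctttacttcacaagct
P2ry12: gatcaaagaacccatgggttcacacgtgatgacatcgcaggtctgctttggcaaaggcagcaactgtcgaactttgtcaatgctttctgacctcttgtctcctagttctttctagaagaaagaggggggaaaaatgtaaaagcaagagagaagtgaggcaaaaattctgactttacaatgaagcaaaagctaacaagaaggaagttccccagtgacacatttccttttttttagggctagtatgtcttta
The *P2ry13* window holds 1 match of GAGGAA, which ends 43 bases before the start site, and the *P2ry12* window holds 0 on either strand. The shorter GGAA does occur in the *P2ry12* window, in lower case, so the 0 holds for the longer form. Both windows have a GC content of 41.6%. RefSeq entries were found for 7 of the 10 genes, with 9 promoters, of which 4 hold GAGGAA on either strand, against 23.3% of 32851 mouse promoters of the same length. A match of letters is a description of the window and not a binding site.

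*Gpr34*, a receptor for lysophosphatidylserine related to the P2Y receptors, lies on chromosome X from 13632089 to 13640858 on the plus strand. Its level was 446, 505 and 592 cpm with the *Cnr1*+/+ label and 499, 527 and 471 cpm with the *Cnr1*-/- label. The 6 libraries stood in the same order as for *P2ry12*, from *Cnr1*+/+ replicate 1 at the bottom to *Cnr1*+/+ replicate 3 at the top. The means were 515 ± 73.5 and 499 ± 28.2 cpm (SD, n = 3 each), with a log2 fold change of −0.04, an SE of 0.121 and an adjusted p of 0.982 in limma. Under the other scalings the log2 fold change of *Gpr34* was −0.16 to −0.11. The ratio of *P2ry12* to *Gpr34* lay between 2.08 and 2.20 in every library, a much narrower range than that of *P2ry12* to *P2ry13*.

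**Figure D2:**
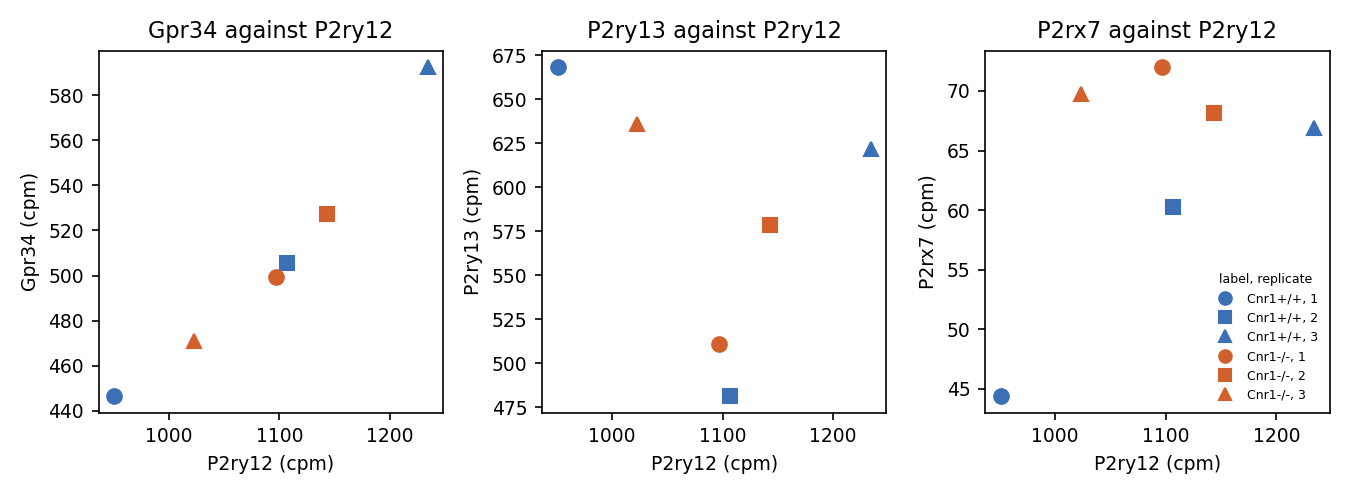
Levels of *Gpr34*, *P2ry13* and *P2rx7* (cpm, y axes, which do not start at 0) against the level of *P2ry12* (cpm, x axes), 1 point per library, with colour for the genotype label and shape for the replicate. *Gpr34* follows *P2ry12* (Pearson r of log2 values 0.98, Spearman's rho = 1) and *P2ry13* does not (r = −0.35, rho = −0.49). For *P2rx7* the r of 0.65 stands beside a rho of 0.09, so its ranks hardly follow those of *P2ry12*. After median centring of the libraries, r was 0.96 for *Gpr34*, 0.23 for *P2rx7* and −0.48 for *P2ry13*.

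*P2ry6*, the receptor for UDP, lies on chromosome 7 from 100937630 to 100974649 on the minus strand. Its level was 102, 148 and 174 cpm with the *Cnr1*+/+ label and 159, 152 and 160 cpm with the *Cnr1*-/- label. The *Cnr1*-/- libraries were close together and lay within the range of the *Cnr1*+/+ libraries, with an SD of 4.58 against 36.3 cpm. The mean was 157 against 141 cpm (n = 3 each), a log2 fold change of 0.18 with an SE of 0.148 (limma, adjusted p = 0.900; two-sided exact permutation p = 0.7). The difference rested on *Cnr1*+/+ replicate 1, the lowest library, without which the log2 fold change was −0.03. Without *Cnr1*+/+ replicate 3, the highest library, it was 0.35, and under the other scalings it was 0.09 to 0.11.

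Both P2X channels of the set lie side by side on the plus strand of chromosome 5, with *P2rx7* from 122643911 to 122691432 and *P2rx4* from 122707544 to 122729738, 16111 bp apart. *P2rx7*, which opens a large cation conductance at high ATP, had 44.4, 60.3 and 66.9 cpm with the *Cnr1*+/+ label and 72.0, 68.2 and 69.8 cpm with the *Cnr1*-/- label. All 3 *Cnr1*-/- libraries were above all 3 *Cnr1*+/+ libraries, although the gap between the nearest of them was small. It was the 1 of 10 members whose groups did not overlap, against 11% of the tested genes, a share like that of the background. The means were 57.2 ± 11.6 and 70.0 ± 1.92 cpm (SD, n = 3 each). The log2 fold change was 0.31 with an SE of 0.155 and an adjusted p of 0.825 in limma, or 1.24-fold with an interval of 0.996 to 1.55. The two-sided exact permutation p was 0.1, the smallest that 3 against 3 libraries can give. The difference rested in good part on *Cnr1*+/+ replicate 1, without which the log2 fold change was 0.14. Without *Cnr1*+/+ replicate 3 it was 0.44, with an adjusted p of 0.432 in limma. Without *Cnr1*-/- replicate 2, the library with the blood cell markers, it was 0.33. Under the other scalings the log2 fold change of *P2rx7* was 0.21 to 0.24.

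*P2rx4*, the more sensitive ATP-gated channel of microglia, had 38.5, 45.8 and 41.2 cpm with the *Cnr1*+/+ label and 42.8, 50.1 and 49.1 cpm with the *Cnr1*-/- label. Only *Cnr1*+/+ replicate 2 and *Cnr1*-/- replicate 1 crossed the line between the groups. The mean was 47.3 ± 3.97 against 41.9 ± 3.67 cpm (SD, n = 3 each), with a log2 fold change of 0.18, an SE of 0.156 and an adjusted p of 0.908 in limma (two-sided exact permutation p = 0.2). Under the other scalings it was 0.08 to 0.10.

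*Entpd1* encodes CD39, the enzyme that removes phosphates from ATP and ADP at the cell surface, and lies on chromosome 19 from 40612366 to 40741602 on the plus strand. It had 165, 174 and 210 cpm with the *Cnr1*+/+ label and 158, 184 and 204 cpm with the *Cnr1*-/- label, so that both groups covered nearly the same range. The means were 183 ± 23.9 and 182 ± 23.2 cpm (SD, n = 3 each), with a log2 fold change of −0.01, an SE of 0.130 and an adjusted p of 0.995 in limma. Under the other scalings the log2 fold change of *Entpd1* was −0.11 to −0.08. *Adora3*, the adenosine receptor A3, senses a product of this cascade and lies on chromosome 3 from 105870858 to 105908926 on the plus strand. It had 75.3, 70.5 and 82.5 cpm with the *Cnr1*+/+ label and 66.3, 77.4 and 89.1 cpm with the *Cnr1*-/- label, where the *Cnr1*-/- libraries held both the lowest and the highest value. The means were 76.1 ± 6.04 and 77.6 ± 11.4 cpm (SD, n = 3 each), with a log2 fold change of 0.02, an SE of 0.143 and an adjusted p of 0.991 in limma. The sign for *Adora3* turned under every other scaling tried, with log2 fold changes of −0.08 to −0.05.

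*Kcnk13* encodes THIK-1, the background potassium channel of microglia, and *Kcnk6* the related channel TWIK-2, which carries potassium out of macrophages when P2X7 opens. *Kcnk13*, on chromosome 12 from 99964499 to 100062682 on the plus strand, had 16.7, 19.0 and 20.4 cpm with the *Cnr1*+/+ label and 17.6, 24.7 and 25.3 cpm with the *Cnr1*-/- label. *Cnr1*-/- replicates 2 and 3 were above every *Cnr1*+/+ library, and *Cnr1*-/- replicate 1 lay among them. The mean was 22.5 ± 4.25 against 18.7 ± 1.85 cpm (SD, n = 3 each), a log2 fold change of 0.25 with an SE of 0.208 and an adjusted p of 0.900 in limma. It was 0.42 without *Cnr1*-/- replicate 1, 0.16 without *Cnr1*-/- replicate 3 and 0.16 to 0.19 under the other scalings. *Kcnk6*, on chromosome 7 from 29221926 to 29232515 on the minus strand, had 114, 98.1 and 119 cpm with the *Cnr1*+/+ label and 153, 138 and 107 cpm with the *Cnr1*-/- label. Here *Cnr1*-/- replicates 1 and 2 were above every *Cnr1*+/+ library, and *Cnr1*-/- replicate 3 was not. The mean was 133 ± 23.4 against 111 ± 11.1 cpm (SD, n = 3 each), a log2 fold change of 0.25 with an SE of 0.140 and an adjusted p of 0.839 in limma (two-sided exact permutation p = 0.3). Without *Cnr1*-/- replicate 1 it was 0.14, with an adjusted p of 0.907 in limma. Without *Cnr1*-/- replicate 3 it was 0.40, with an adjusted p of 0.820 in limma and a nominal p under 0.05. Under the other scalings *Kcnk6* was at 0.15 to 0.18.

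**Figure D3:**
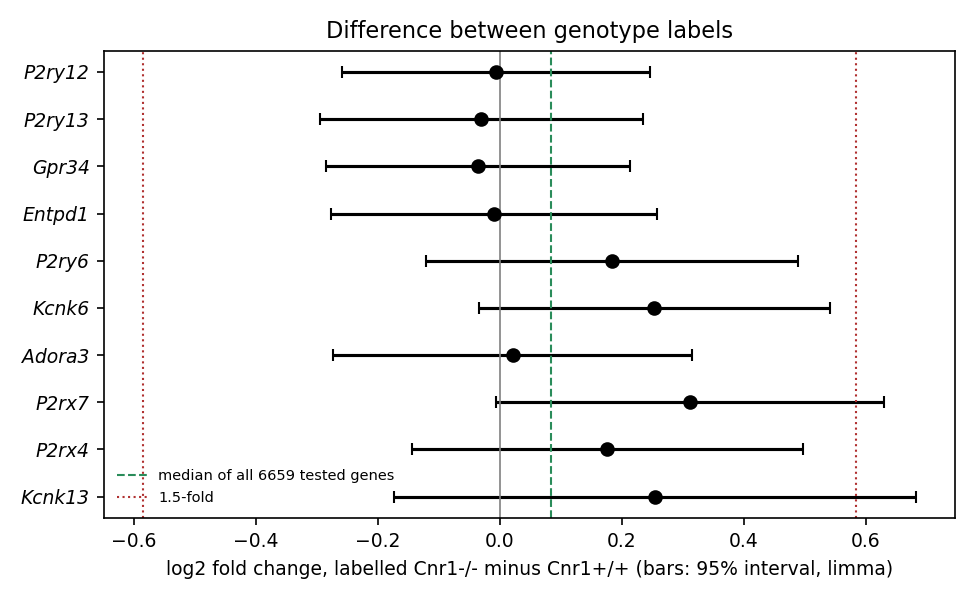
Log2 fold change of each gene, *Cnr1*-/- minus *Cnr1*+/+ (x axis), from limma, with its 95% confidence interval as a bar, the median of all tested genes as a dashed line and 1.5-fold in either direction as dotted lines. *P2rx7* at 0.31, *Kcnk13* and *Kcnk6* at 0.25 lie farthest to the right, and every interval includes 0.

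Leaving out 1 library could move many members at once. Without *Cnr1*+/+ replicate 3, all 10 log2 fold changes were above 0 and 3 members, *P2ry6*, *P2rx7* and *Kcnk6*, had a nominal p under 0.05. In the same fit, 600 of 6614 tested genes had such a p, 548 of them higher, and the median over all tested genes was 0.13. That library held the highest value of 4 members and the lowest of 0, whereas *Cnr1*+/+ replicate 1 held the lowest value of 6. The sum of the 10 genes was 2622, 2709 and 3163 cpm in the *Cnr1*+/+ libraries and 2775, 2944 and 2834 cpm in the *Cnr1*-/- libraries, which again places the *Cnr1*-/- libraries inside the *Cnr1*+/+ range. *P2ry12* alone made up 36.1% to 40.9% of this sum.

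**Figure D4:**
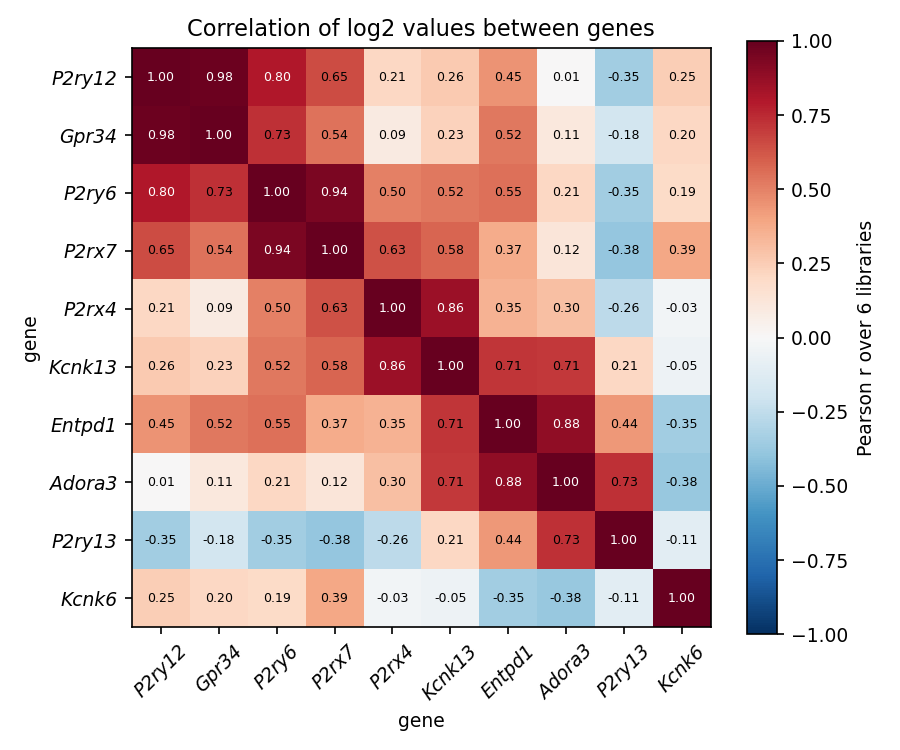
Pearson r between the log2 values of each pair of the 10 genes over the 6 libraries (colour and number in each cell). *P2ry12* with *Gpr34* and *P2ry6* with *P2rx7* hold the highest values, and *P2ry13* with *P2rx7* the lowest.

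Over the 6 libraries, which share the authors' scaling and both genotype labels, 4 of the 45 pairs of members had an r of their log2 values above 0.8 and 10 had an r below 0, with a median of 0.30. The pairs above 0.8 were *P2ry12* with *Gpr34* (r = 0.98, Spearman's rho = 1), *P2ry6* with *P2rx7* (r = 0.94, rho = 0.6), *Entpd1* with *Adora3* (r = 0.88, rho = 0.89) and *P2rx4* with *Kcnk13* (r = 0.86, rho = 0.77). For *P2ry6* and *P2rx7*, the low value of *Cnr1*+/+ replicate 1 was shared. When each library was centred on its median, the r of these pairs was 0.96, 0.90, 0.84 and 0.63 in the same order, and the median over the 45 pairs was −0.01. Neighbours on a chromosome did not stand out, with r = −0.35 for *P2ry12* and *P2ry13* and r = 0.63 for *P2rx4* and *P2rx7*. These are descriptions of 6 points and were not tested.

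Among the 6658 other tested genes, those most like *P2ry12* over the 6 libraries were *Tbc1d24* (r = 0.994), *Tmem173* (r = 0.990), *Btg2* (r = 0.989), *Uggt1* (r = 0.989) and *Odr4* (r = 0.988). *Gpr34* stood at rank 10 of this order and *P2ry13* at rank 5887, where the median r was 0.34. After centring each library on its median, the genes most like *P2ry12* were *Rb1*, *Smad1*, *Uggt1*, *Tmem173* and *Shc1*, and *Gpr34* stood at rank 9. Only *Uggt1* and *Tmem173* stand in both lists of 5.

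**Figure D5:**
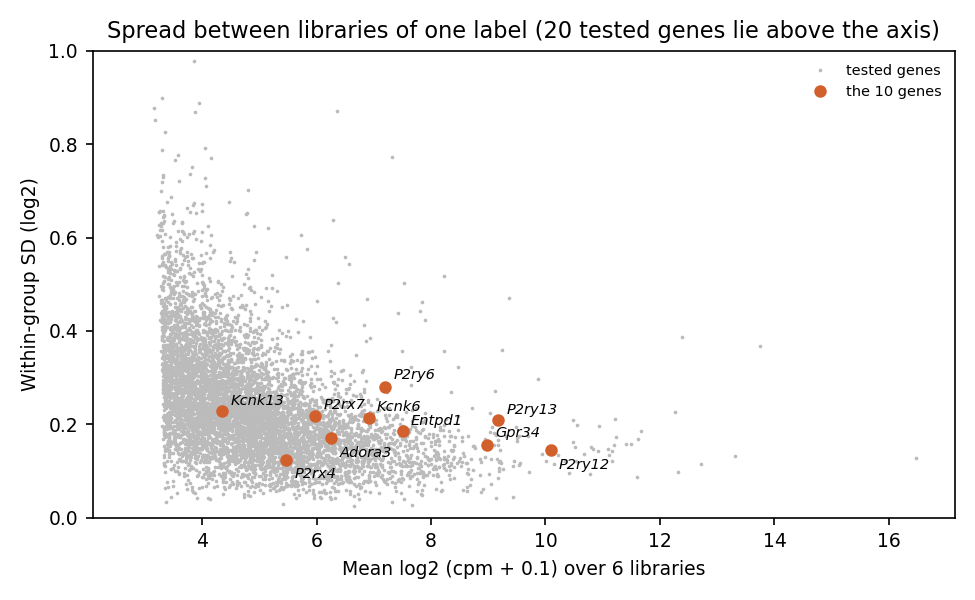
SD between libraries of the same label (y axis, log2 units) against mean level (x axis, log2 of cpm + 0.1) for the tested genes in grey and the 10 genes in orange. The 10 genes lie within the cloud of tested genes, with SDs from 0.124 for *P2rx4* to 0.279 for *P2ry6*, and 20 tested genes lie above the axis.

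The spread between libraries of the same label exceeded the spread from counting reads alone for all 10 members. With 1 library per mouse, the mouse, the isolation of cells and the library preparation cannot be told apart in it. *P2ry12* was read 7331 to 12259 times per library, which gives a counting SD of 0.0145 on the log2 scale, against 0.145 between libraries of the same label. The spread was 10.5 times the counting SD for *P2ry13* and 7.30 times for *Gpr34*, but 1.73 times for *P2rx4* and 2.14 times for *Kcnk13*, which was read 129 to 265 times. *P2rx4* and *P2ry12* were among the steadier genes, since 86.3% and 79.4% of the tested genes had a larger SD. *P2ry6* was among the more variable, with 29.4% above it. From the lowest to the highest of the 6 libraries, members varied by 1.30 times (*P2ry12* and *P2rx4*) to 1.70 times (*P2ry6*).

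Some members share their place with other genes, and the sources used here do not give the strand setting of the counting. *Med12l* covers *P2ry12* and *P2ry13* on the opposite strand and had 12.2 to 19.9 cpm, at most 1.74% of *P2ry12* and 3.59% of *P2ry13*. *Cask*, opposite to *Gpr34*, had 25.0 to 43.3 cpm, at most 8.20% of *Gpr34*. On the same strand, *Tmigd3* overlaps *Adora3* in GENCODE vM21 and is not listed in the table, so that the *Adora3* values could hold its reads. The same holds for *Mir8115* over *P2rx7* and for *Gm16027*, *Gm8783* and *AC166063.1* over *Entpd1*.

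The other genes of the pathway were taken from 10 lists with 126 genes, of which 102 were in the table and 45 passed the minimum level. Of these 45, 4 were higher and 1 was lower in the libraries labelled *Cnr1*-/- at a nominal p under 0.05 (11.1%, against 6.02% of the tested genes), and 0 passed an adjusted p under 0.1 in limma. The log2 fold change was above 0 for 34 and below 0 for 11, with a median of 0.14 beside the 0.08 of all tested genes. The groups did not overlap for 5 of the 45 (11.1%), a share like the 11% of all tested genes. Without *Cnr1*-/- replicate 2, the number at a nominal p under 0.05 was 3, where 251 of 6583 tested genes had such a p. Without *Cnr1*+/+ replicate 3 it was 9, where 600 of 6614 had such a p.

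Most other receptors for nucleotides were scarce. Of 13 other P2Y and related receptors, 7 were in the table and 2 were tested, namely *Lpar6*, a receptor for lysophosphatidic acid, at a mean of 195 cpm and *P2ry10b* at 10.3 cpm, with log2 fold changes of 0.12 and 0.29. *P2ry14*, the receptor for UDP-glucose, lay below the minimum with 2.85, 2.29 and 5.99 cpm in the *Cnr1*+/+ libraries and 2.49, 1.68 and 0 cpm in the *Cnr1*-/- libraries. *Gpr171*, a neighbour of *P2ry12*, had 0.389, 0 and 1.05 cpm in the *Cnr1*+/+ libraries and was listed at 0 in all *Cnr1*-/- libraries. None of the other P2X receptors (5 listed, 2 in the table) or adenosine receptors (3 listed, 2 in the table) reached the minimum. *P2rx1* had a mean of 2.42 cpm and *Adora1* of 6.47 cpm, well below *P2rx4* and *Adora3*, while *P2rx6* had 0.479 cpm and *Adora2a* 0.174 cpm.

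Ectonucleotidases other than *Entpd1* were also low, with 2 of 19 tested. *Entpd6*, the most abundant of them, had a mean of 15.3 cpm and a log2 fold change of −0.12, and *Enpp2*, which encodes autotaxin, lay below the minimum at 6.11 cpm. *Enpp4*, an ectoenzyme of the nucleotide pyrophosphatase family, had 15.3, 13.1 and 16.1 cpm with the *Cnr1*+/+ label and 10.9, 9.79 and 8.94 cpm with the *Cnr1*-/- label. All 3 *Cnr1*-/- libraries were below all *Cnr1*+/+ libraries, with a log2 fold change of −0.58, an SE of 0.253 and an adjusted p of 0.809 in limma (two-sided exact permutation p = 0.1). *Nt5e*, which encodes CD73 and turns AMP into adenosine, had a mean of 0.365 cpm, close to the 0.280 to 0.389 cpm that 3 reads give. Adenosine transport and salvage was represented by *Slc29a3* at 227 cpm, *Pnp* at 105 cpm and *Slc29a1* at 21.7 cpm, with log2 fold changes of 0.00, 0.24 and 0.07.

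Of 15 genes linked to ATP release, mostly channels, 3 were tested. *Calhm2*, which encodes a large-pore channel, had 17.5, 18.0 and 28.5 cpm with the *Cnr1*+/+ label and 27.5, 32.0 and 33.5 cpm with the *Cnr1*-/- label. The groups met at *Cnr1*+/+ replicate 3, and the log2 fold change was 0.57 with an SE of 0.203 and an adjusted p of 0.690 in limma (two-sided exact permutation p = 0.2). *Lrrc8d*, a subunit of the volume-regulated anion channel, had 16.2, 22.7 and 17.2 cpm against 26.2, 29.5 and 25.4 cpm, without overlap. Its log2 fold change was 0.54 with an SE of 0.199 and an adjusted p of 0.702 in limma (two-sided exact permutation p = 0.1). The obligatory subunit *Lrrc8a* had a log2 fold change of −0.09. Below the minimum, *Panx1* had 5.06, 5.69 and 5.47 cpm against 2.71, 4.76 and 2.50 cpm. *Lrrc8c*, another subunit gene below the minimum, had 2.72, 1.80 and 3.89 cpm against 0.650, 1.77 and 0.358 cpm. The groups of *Panx1* and *Lrrc8c* did not overlap (two-sided exact permutation p = 0.1 for each). The share without overlap among all genes below the minimum was not taken.

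The Gi pathway, through which P2Y12, P2Y13 and A3 signal, was measured best, with 22 of 26 genes tested, 19 of them above 0, beside 68.4% of all tested genes under the authors' scaling. *Gnai2* had a mean of 584 cpm, *Rgs2* of 611 cpm and *Arrb2* of 320 cpm, with log2 fold changes of 0.15, 0.07 and 0.18. *Arrb1*, which encodes an arrestin that uncouples receptors, had 35.7, 49.3 and 46.5 cpm with the *Cnr1*+/+ label and 58.5, 57.2 and 59.1 cpm with the *Cnr1*-/- label. The groups did not overlap, with a log2 fold change of 0.42, an SE of 0.156 and an adjusted p of 0.702 in limma (two-sided exact permutation p = 0.1).

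Downstream of P2X7, 8 of 10 inflammasome genes were tested and their median log2 fold change was 0.06. The sensor gene *Nlrp3* had a mean of 20.8 cpm and a log2 fold change of −0.06, the adaptor *Pycard* 82.6 cpm and −0.14, and *Casp1*, the protease that matures interleukin-1β, 23.2 cpm and 0.07. *Nek7*, whose product NLRP3 needs to assemble, had a mean of 46.2 cpm and a log2 fold change of 0.04. *Il1b*, the cytokine gene at the end of this path, lay below the minimum and was not in the fit. It had 1.43, 2.00 and 2.52 cpm with the *Cnr1*+/+ label and 4.76, 9.79 and 4.77 cpm with the *Cnr1*-/- label. Its groups did not overlap (two-sided exact permutation p = 0.1), and its highest value was in *Cnr1*-/- replicate 2, the library with the blood cell markers, whose part in it was not tested. *Txnip*, whose product binds NLRP3, had 124, 108 and 137 cpm with the *Cnr1*+/+ label and 164, 149 and 144 cpm with the *Cnr1*-/- label, without overlap. Its log2 fold change was 0.31 with an SE of 0.128 and an adjusted p of 0.792 in limma (two-sided exact permutation p = 0.1). Of 19 other potassium channel genes, *Kcnj10* alone was tested, at 11.1 cpm with a log2 fold change of 0.54, a two-sided exact permutation p of 0.3 and groups that overlap. *Kcnj2* and *Kcnk2* lay below the minimum at 6.91 and 4.57 cpm. Of 6 genes that make or break down lysophosphatidylserine and related lipids, 4 were tested and 0 had a nominal p under 0.05, with *Abhd12*, which breaks down the ligand of GPR34, at a mean of 270 cpm and a log2 fold change of 0.07. *Abhd6* had 48.1 cpm and −0.01, and *Abhd16a*, which makes the ligand, 26.7 cpm and 0.37.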

How the data were processed

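CD11b+ brain cells of 6 male mice, 3 per genotype label, gave 1 library each, sequenced from the 3′ end (50 bp single reads). The authors aligned reads to mm10 with STAR in Partek Flow, divided shared reads by expectation-maximisation and scaled them with TMM. The deposited values are CPM of 19225 genes, and the listed genes hold 50.1% to 59.1% of each library's scaled total. Since 85.1% to 87.0% of low values were whole multiples of 1 read (tolerance 0.02), a test on counts was not the main result, and limma voom was an alternative.

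Genotype labels were compared with limma 3.58.1 in R 4.3.3 (lmFit, eBayes with trend) on log2 (cpm + 0.1) where the mean reached 10 cpm. The change of low genes is slightly understated, as for *Enpp4* at −0.578, against −0.583 with a pseudocount of 0.0001. The threshold was 0.05 for nominal and 0.1 for adjusted p-values. A two-sided exact permutation test was added for each member. The limma p-values rest on the spread between these 6 mice, with each gene's SD drawn towards that of genes of similar level. The fit was tested on simulated data. Coordinates are those of the deposited table, and the ends of all 10 genes equal GENCODE vM21. Plots used Python 3.11.15 and matplotlib 3.10.9.

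The rule for the members uses gene names only, but the members, the lists and their tests were chosen with earlier results of these data known. All 10 members are named. Of the other pathway genes, the text names those with a nominal p under 0.05, the 3 most abundant of each list and the listed neighbours of members. *Nt5e*, *Panx1*, *Lrrc8c*, *Nlrp3*, *Casp1* and *Il1b* were named after their values were seen. Alternatives covered the pseudocount, the filter, the scaling, the variance model, a block on replicate number and each library left out.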

Additional observations from a re-analysis of the deposited data

How the results depend on the processing

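The number of member genes at an adjusted p under 0.1 was 0 under all alternatives run, and that at a nominal p under 0.05 was 0 except without 1 library (0 to 3). The number of tested genes at an adjusted p under 0.1 was 0 after quantile normalisation, centring of libraries on their medians, rescaling without mitochondrially encoded genes, rescaling to the microglia identity genes (chosen after seeing the data), eBayes without trend and no shrinkage, 15 without the filter, 8 in limma voom and 1 to 24 without 1 library. That at a nominal p under 0.05 was 993 of 19225 without the filter, 263 of 4126 at a minimum mean of 20 cpm and 251 to 600 without 1 library. Scaling moved its split, from 339 higher and 62 lower to 197 and 178 after centring, 163 and 197 after quantile normalisation, 142 and 210 without mitochondrially encoded genes and 166 and 172 on the identity genes. Centring took the median of all tested genes from 0.08 to 0.01.

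The replicate numbers did not pair the mice (r = −0.06, −0.03 and −0.03 between deviations of the same number). With a replicate block, 421 genes had a nominal p under 0.05 and 9 an adjusted p under 0.1, with 0 members in each, and the number of other pathway genes was 5.

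The log2 fold change of *Adora3* reversed to −0.054 after centring, −0.068 after quantile normalisation, −0.078 after rescaling without mitochondrially encoded genes and −0.060 after rescaling to the identity genes. Without 1 library, it ranged from −0.084 to 0.13 for *Adora3*, −0.10 to 0.083 for *P2ry12*, −0.17 to 0.066 for *P2ry13*, −0.032 to 0.35 for *P2ry6*, −0.13 to 0.070 for *Gpr34* and −0.095 to 0.094 for *Entpd1*, in each case crossing 0. It kept its sign for *P2rx7* (0.14 to 0.44), *Kcnk6* (0.14 to 0.40), *Kcnk13* (0.16 to 0.42) and *P2rx4* (0.12 to 0.25).

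The number of other pathway genes at a nominal p under 0.05, followed under alternatives added after seeing the data, was 9 of 102 without the filter, 3 with no shrinkage and 3 to 9 without 1 library. *Calhm2*, *Lrrc8d*, *Arrb1*, *Txnip* and *Enpp4* kept their direction under all of them that tested them (*Enpp4* falls below a minimum mean of 20 cpm), but each lost a nominal p under 0.05 in at least 1. The cause of these differences was not tested. Depth limits genes near 3 reads and adds most to the spread of *P2rx4* and *Kcnk13*.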
